A study of Mus musculus with 8 samples.

Results

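The genes of bile acid amidation and of taurine supply were followed in mouse liver: the ligases Slc27a5 and Slc27a2, the acyltransferase Baat, the thioesterase Acot8, the N-acyltransferases Acnat1 and Acnat2, the taurine enzymes Cdo1, Csad and Gadl1, and the taurine carrier Slc6a6. These 10 genes were taken by symbol from the 35976 genes of the count table, and all 10 were listed there. The study measured RNA in whole liver of mice on a high fat diet, in 5 samples of genotype CTRL (titled WT) and 3 of genotype OPA1 LKO (titled KO, written OPA1_LKO here), in which Opa1 was knocked out in hepatocytes. Opa1 encodes the GTPase that fuses the inner membrane of mitochondria, and the title of the series links this fusion to the conjugation of bile acids. The high fat diet was shared by both groups, so no value speaks of the diet itself. The labels name no strain, sex, age, Cre driver, deleted exon or batch, and do not say that each sample is a separate animal. P-values here thus describe sample-to-sample spread alone, and part of that may be technical.

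Bile acids leave the hepatocyte mostly as amides of taurine or glycine, and in the mouse taurine is the main partner. A free bile acid, such as one returned from the gut, is tied to coenzyme A by a bile acid-CoA ligase, chiefly the Slc27a5 product (also called BACS or FATP5), and Baat then moves the acyl group onto the amino acid in the peroxisome. Taurine is made from cysteine, which the Cdo1 product oxidises to cysteine sulfinate. The Csad product takes carbon dioxide from this to give hypotaurine, which is then oxidised to taurine. The Slc6a6 product (TauT) carries taurine into cells with sodium and chloride.

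Each library carried 16076404 to 20471271 estimated gene reads, and CPM below is the count scaled to a common total with TMM factors. CTRL replicate 1 stood apart, at -58.4 on the second principal component, and Apoe was at 134 CPM there against 20759 to 33179 CPM in the other 7 libraries. It also held the most Xist, the RNA of the inactive X chromosome, at 8.13 CPM against 0 to 0.185 CPM elsewhere, beside Y-linked Ddx3y at 7.91 CPM. Y-linked Eif2s3y and Kdm5d were at 35.8 and 7.28 CPM in CTRL replicate 1, against 27.2 to 46.7 and 4.47 to 5.90 CPM elsewhere. Gad1, Gad2 and Slc6a11, from the lists below, had 58, 31 and 14 estimated counts in this library. In the other 7 libraries they had 0 to 1, 0 and 0. Whether this library matches its label, or mixes samples, could not be settled from these values. In CPM, Opa1 was lower in every OPA1_LKO library than in every CTRL library, as were 8.41% of all genes tested. In TPM the groups overlapped, with CTRL replicate 3 at 6.73 TPM and OPA1_LKO replicate 2 at 7.45 TPM. The log2 fold change of Opa1 was -0.63 ± 0.17 (SE; adjusted p = 0.0539 by edgeR with Benjamini-Hochberg). The hepatocyte markers (7 of 7 detected in every library) summed to 58920.3 to 105119 CPM in CTRL and 71069 to 91589 CPM in OPA1_LKO. Over all 14036 genes tested, 469 were called higher and 377 lower, and on log2(TPM + 1) with limma the split was 504 and 107, with upper-quartile scaling 547 and 270. Without CTRL replicate 1, 924 were called higher and 777 lower. In whole liver, fewer cells of a type and less RNA per cell cannot be told apart.

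Of the 10 genes, 9 had enough counts to be tested, and none of the 9 passed an adjusted p of 0.05 in edgeR, in either direction. At the same threshold 6.03% of all genes tested were called. The threshold was missed by the smallest margin by Csad, which was higher in OPA1_LKO (adjusted p = 0.0642), and by Acnat2, which was lower (adjusted p = 0.0714). Before adjustment 4 of the 9 were under 0.05 in edgeR, namely Csad, Acnat2, Baat and Acot8, and so were 23.8% of all genes tested. The fold change was negative for 8 of 9 in edgeR, of which Slc27a5 and Slc27a2 turned positive on log2(TPM + 1). The median of the 9 was -0.33, against -0.03 for all genes tested, of which 53.1% were negative. Baat and Acot8 were the genes whose OPA1_LKO libraries all lay below all CTRL libraries in CPM, which held for 8.41% of all genes tested (16.4% in either direction).

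**Figure D1:**
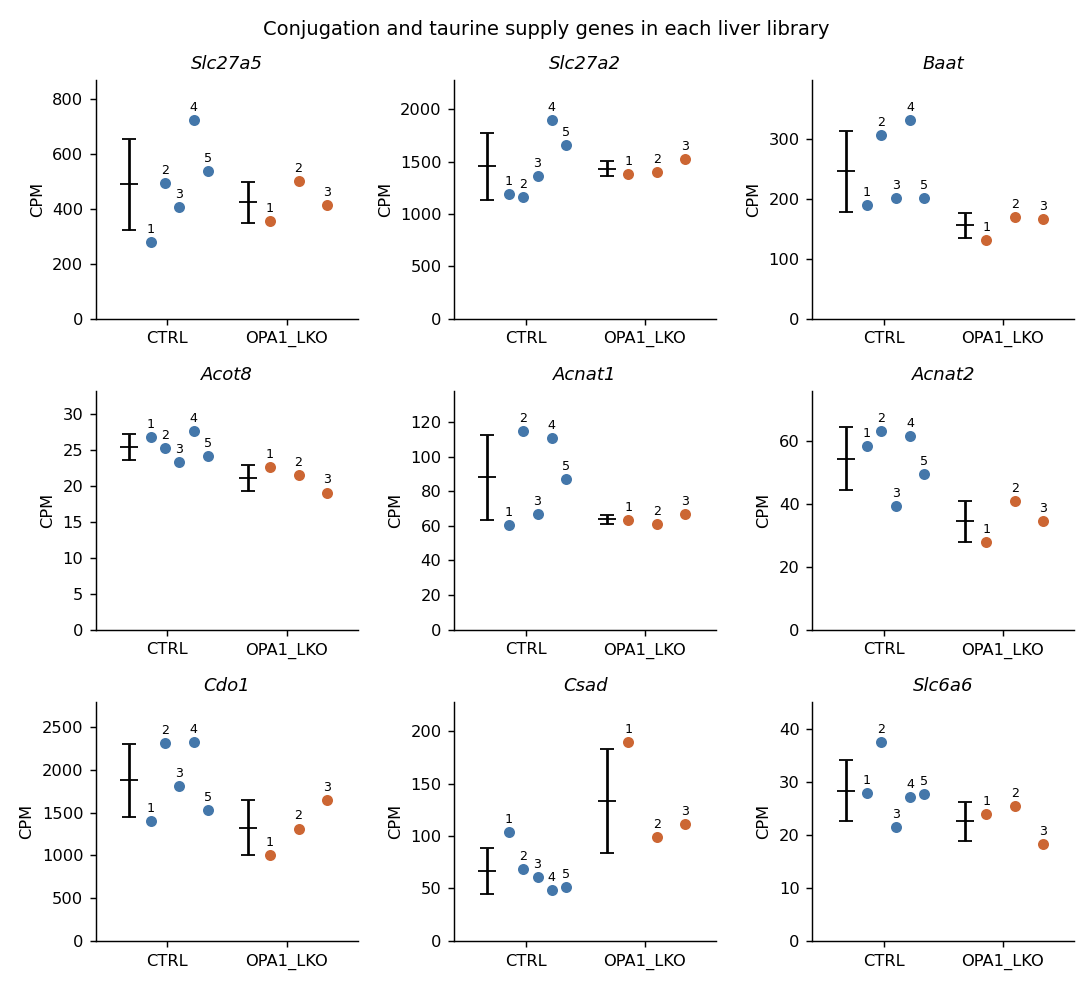
Level of each of the 9 tested genes in every library, in CPM (vertical axis, from 0), for CTRL (blue) and OPA1_LKO (orange). Numbers are the replicates, and the bar to the left of each group is its mean with the SD. Baat and Acot8 do not overlap between the groups, Csad overlaps through CTRL replicate 1 alone, and Slc27a2 has almost equal means of 1456 and 1436 CPM.

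The activating ligases overlapped between the groups, and neither was called. Slc27a5 (chromosome 7, 12988346 to 12998192, GRCm38.p6) measured 278, 496, 406, 726 and 539 CPM across CTRL replicates 1 to 5, against 355, 503 and 413 CPM across OPA1_LKO replicates 1 to 3. All 3 OPA1_LKO values lay inside the CTRL range, whose ends were replicate 1 and replicate 4. Its log2 fold change was -0.21 ± 0.28 (SE; adjusted p = 0.690, edgeR). In TPM, which is corrected for length, it was at 224 ± 59.7 (SD, n = 5) and 223 ± 49.2 (SD, n = 3), so the sign is not fixed across scales. The table lists a single Slc27a5 transcript, NM_009512.2, so isoforms could not be compared.

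Slc27a2 (FATP2, chromosome 2, 126553024 to 126588243) encodes a very long chain acyl-CoA synthetase that can also activate bile acids. Its CTRL libraries ranged from 1161 to 1904 CPM with a median of 1361 CPM, and its OPA1_LKO libraries were at 1385, 1400.0 and 1522 CPM. The OPA1_LKO libraries were close to each other and lay within the CTRL range. The log2 fold change was -0.02 ± 0.20 (SE; adjusted p = 0.963, edgeR), and its sign changed with the scaling, to 0.0700 with upper-quartile factors.

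Baat, which joins the activated bile acid to taurine or glycine, was lower in all 3 OPA1_LKO libraries without passing the test. It lies on chromosome 4 from 49489416 to 49507915. CTRL replicates 1 to 5 were at 189, 305, 201, 332 and 202 CPM, and OPA1_LKO replicates 1 to 3 at 131, 169 and 166 CPM. CTRL replicates 2 and 4 were well above the other 3 CTRL libraries, and CTRL replicate 1 was the nearest to the OPA1_LKO group. The difference came to -0.66 ± 0.23 (SE) on the log2 scale, with an adjusted p of 0.115 by edgeR across all genes. The Wald test of DESeq2 on the same counts gave an adjusted p of 0.0451, where 5.29% of all genes tested were called lower. Without CTRL replicate 1 the difference was -0.74 (adjusted p = 0.0540, edgeR). In TPM the groups overlapped, since CTRL replicate 3 (97.0 TPM) lay below OPA1_LKO replicate 2 (114 TPM).

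Almost all Baat RNA belonged to transcript NM_007519.3, with 99.6% ± 0.157 of Baat TPM in CTRL and 99.6% ± 0.413 in OPA1_LKO. That transcript averaged 138 ± 36.1 TPM for CTRL against 98.3 ± 13.3 TPM for OPA1_LKO (SD, n = 5 and 3). The predicted transcript XM_006537565.3 stayed under 1 TPM in all 8 libraries. An exact two-sided permutation test of its share gave p = 0.964 over 56 divisions of the libraries.

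Baat sits beside Acnat2 and Acnat1 on chromosome 4, in the order Acnat2 (49374458 to 49408151), Acnat1 (49443532 to 49481315), Baat, with 35380 and 8100 bases between neighbours. The Acnat genes encode N-acyltransferases of the same family, and mouse ACNAT1 is known to join taurine to fatty acids in the peroxisome. The coding sequences of Acnat1 and Acnat2 were 96.2% identical over 1248 aligned bases, with a longest shared run of 200 bases, whereas Baat and Acnat1 were 64.8% identical and shared no run above 14 bases. A stretch of 90 coding bases is shown, because shared stretches limit which of these counts can be read apart. It was taken from the middle of the longest run shared by Acnat1 and Acnat2, so their match there was fixed by that choice. It is given as GENCODE M21 transcript sequence (GRCm38, minus strand, coding bases 359 to 448, in a single exon), at chr4:49450662-49450751 for Acnat1, chr4:49383104-49383193 for Acnat2 and chr4:49502673-49502762 for Baat. Capitals mark the 33 bases at which Baat differs from Acnat1, and Acnat2 differs from Acnat1 at 0.
Acnat1: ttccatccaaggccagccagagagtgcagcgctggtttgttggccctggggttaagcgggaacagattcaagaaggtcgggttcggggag
Acnat2: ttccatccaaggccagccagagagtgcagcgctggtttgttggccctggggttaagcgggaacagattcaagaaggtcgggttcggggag
Baat: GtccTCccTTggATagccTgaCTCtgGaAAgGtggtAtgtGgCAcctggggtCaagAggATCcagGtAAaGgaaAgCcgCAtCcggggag

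A read that falls wholly in such a stretch fits Acnat1 and Acnat2 equally, and RSEM then divides it. The estimated counts were whole numbers (within 0.005) in 0 of 8 libraries for Acnat1 and in 0 of 8 for Acnat2, but the sum of both was whole in 8 of 8. Baat counts were whole in 8 of 8 libraries. The split between Acnat1 and Acnat2 is therefore uncertain, and their sum does not depend on it.

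Counted alone, Acnat2 measured 58.3, 63.2, 39.3, 61.5 and 49.3 CPM across the CTRL libraries, against 27.8, 40.8 and 34.5 CPM across the OPA1_LKO libraries. OPA1_LKO replicate 2 was above CTRL replicate 3, and the other libraries did not overlap. The log2 fold change was -0.66 ± 0.19 (SE; adjusted p = 0.0714, edgeR). It passed without CTRL replicate 3 (-0.73, adjusted p = 0.0442 in edgeR, with 1.9% of all genes called lower) and in DESeq2 (adjusted p = 0.0212).

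Acnat1 measured 60.6, 115, 66.9, 110.4 and 87.0 CPM across the CTRL libraries, against 63.2, 61.3 and 66.8 CPM across the OPA1_LKO libraries. The OPA1_LKO libraries spanned a narrow band at the lower end of the CTRL range, next to CTRL replicates 1 and 3. The log2 fold change was -0.46 ± 0.22 (SE; adjusted p = 0.235, edgeR). Summed into 1 item, a choice made after the whole-number pattern was seen, both genes gave 142 ± 31.8 CPM for CTRL against 98.1 ± 6.20 CPM for OPA1_LKO. In CPM the sum was lower in every OPA1_LKO library than in every CTRL library, as were 8.41% of all genes tested. The log2 fold change of the sum was -0.54 ± 0.19 (SE; adjusted p = 0.126, edgeR). In TPM, CTRL replicate 3 lay below OPA1_LKO replicate 2 for Acnat1 (11.6 and 14.7 TPM) and for Acnat2 (23.4 and 33.9 TPM). Their sum thus overlapped between the groups on that scale.

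Acot8, on chromosome 2 from 164792768 to 164820219, encodes a peroxisomal thioesterase that splits acyl-CoA esters, bile acid-CoA included. CTRL replicates were at 26.7, 25.2, 23.3, 27.6 and 24.1 CPM and OPA1_LKO replicates at 22.6, 21.5 and 19.1 CPM. The groups did not overlap, and this gene varied least among CTRL libraries, with a coefficient of variation of 7.08% against 18.3% to 33.9% for the other 8 tested genes. The difference was -0.27 ± 0.12 on the log2 scale (SE; adjusted p = 0.198, edgeR). In TPM the groups overlapped, at 28.9 ± 5.39 and 27.1 ± 4.38 (SD, n = 5 and 3). The estimated counts of Acot8 were whole in 0 of 8 libraries, so a part of its reads was shared out by estimation.

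On the taurine side, the enzyme of the first step and that of the next step differed in opposite directions in their means. Cdo1, on chromosome 18, measured 1403, 2311, 1815, 2327 and 1526 CPM across the CTRL libraries, against 1003, 1314 and 1646 CPM across the OPA1_LKO libraries. OPA1_LKO replicates 1 and 2 lay below every CTRL library, and replicate 3 lay above CTRL replicates 1 and 5. For Cdo1 the log2 fold change was -0.51 ± 0.24 (SE; adjusted p = 0.233, edgeR). Its estimated reads numbered between 21719 and 41129 per library, so counting error is small beside the spread between libraries.

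Csad, on chromosome 15 from 102176997 to 102205052, alone among the 9 tested genes had a positive fold change in edgeR, while on log2(TPM + 1) Slc27a5 and Slc27a2 were positive as well. CTRL replicates 1 to 5 were at 104, 68.9, 60.7, 48.6 and 51.8 CPM, and OPA1_LKO replicates 1 to 3 at 189.9, 99.2 and 111 CPM. OPA1_LKO replicate 1 was far above all others, and CTRL replicate 1, the library that stood apart, was the single CTRL value above an OPA1_LKO value. On the log2 scale OPA1_LKO exceeded CTRL by 1.0 ± 0.28 (SE; adjusted p = 0.0642, edgeR across all genes).

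The Csad call turned on single libraries. Without CTRL replicate 1 the log2 fold change was 1.22 with an adjusted p of 0.0114 in edgeR, in a fit that called 6.65% of all genes higher. Without OPA1_LKO replicate 1 it was 0.66 with an adjusted p of 0.297. DESeq2 with all 8 libraries gave an adjusted p of 0.0125, where 5.14% of all genes were called higher. In these fits Csad was the 1 gene called higher among the 9 without CTRL replicate 1 and in DESeq2.

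Markers of other cells and of liver zones were summed per library beside Csad. The cholangiocyte markers summed to 17.5 to 72.6 CPM per CTRL library and to 141 to 205 CPM per OPA1_LKO library, and 3 of 7 (Spp1, Sox9 and Krt7) were called higher, while Krt19, Epcam, Cldn7 and Cftr were not. Most of this sum was Spp1, at 22.7 CPM on average in CTRL and 154 CPM in OPA1_LKO. The 6 other markers, a sum chosen after these values were seen, came to 3.36 to 4.41 CPM in 4 CTRL libraries, 51.6 CPM in CTRL replicate 3 and 19.3 to 28.4 CPM in OPA1_LKO, so the groups overlapped. Krt19 and Cftr had negative fold changes (-0.50 and -0.11). The periportal markers summed to 3109 to 5304 CPM in CTRL and 5646 to 7780.3 CPM in OPA1_LKO, with 1 of 6 called higher (Pck1) and 1 lower (Cyp2f2). The stellate cell markers summed to 184 to 263 CPM per CTRL library and 264 to 569 CPM per OPA1_LKO library with 0 of 7 called, and the Kupffer cell markers to 135 to 678 and 122 to 171 CPM with 0 of 6 called. The 678 CPM belonged to CTRL replicate 1, and the other 4 CTRL libraries were at 135 to 315 CPM. The pericentral markers overlapped, at 7440 to 15735 CPM in CTRL and 6399 to 11540 CPM in OPA1_LKO. The endothelial, lymphocyte, neutrophil and adipocyte sums overlapped too. No marker of these lists was at 0 in all libraries. Their part in the Csad result was not tested.

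Csad has 17 transcripts in the table, and RSEM spread its reads unevenly over them. The coding transcript NM_144942.4 measured 14.2, 19.1, 0, 11.6 and 8.85 TPM across the CTRL libraries, against 17.3, 33.0 and 1.44 TPM across the OPA1_LKO libraries. It was listed at 0 in CTRL replicate 3 and was also low in OPA1_LKO replicate 3, and in both of these libraries the non-coding XR_001781536.1 took 46.1% and 40.9% of Csad TPM, against 0% in the other 6. All 14 coding accessions together averaged 17.6 ± 9.94 TPM for CTRL against 39.1 ± 22.7 TPM for OPA1_LKO. The 3 non-coding accessions averaged 17.5 ± 11.3 against 37.4 ± 18.1 TPM (SD, n = 5 and 3). The means of both kinds were thus higher in OPA1_LKO, and the non-coding share was 48.7% ± 22.5 against 49.7% ± 22.4.

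**Figure D2:**
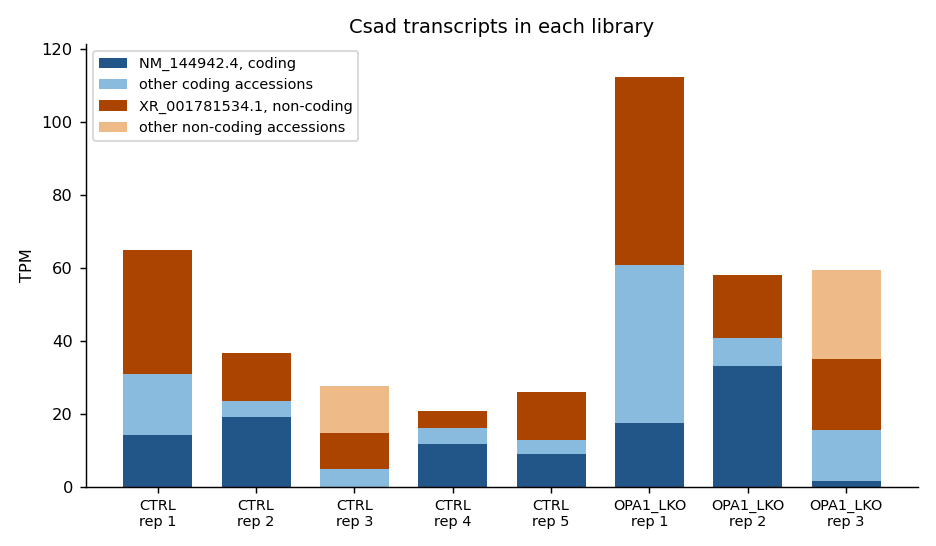
TPM of Csad transcripts (vertical axis, from 0) stacked in each library, with the main coding and the main non-coding transcript apart from the other accessions of each kind. OPA1_LKO replicate 1 reaches 112 TPM, and CTRL replicate 3 and OPA1_LKO replicate 3 hold a block of other non-coding accessions that the remaining 6 libraries lack.

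Across the 6 genes with at least 2 transcripts at a mean of 0.1 TPM or more, 29 isoform shares were compared. None reached an unadjusted p of 0.05 in the exact two-sided permutation test, whose smallest possible p is 0.0357. The lowest p, 0.0714, belonged to the Csad coding transcript XM_011245642.1, with 6.21% ± 6.56 of Csad TPM in CTRL and 15.8% ± 5.02 in OPA1_LKO. After adjustment over the 29 shares every value was 1. With a smallest possible p of 0.0357, no share on its own could pass 0.05 after this adjustment. No transcript of the 10 genes was called by edgeR over the 26349 transcripts tested, where 0.0569% were called in all.

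Csad overlaps Zfp740, a gene on the other strand, by 1547 bases at its start. The libraries were made with a stranded kit, and the strand setting of the counting is not given in the sources used here. Csad estimated counts were whole in 5 of 8 libraries. They were not whole in CTRL replicates 2 and 5 and OPA1_LKO replicate 1 (1225.9, 904.36 and 4113.21). Zfp740 counts were not whole in the same libraries (340.1, 376.64 and 456.79), so part of the reads of both genes was divided by estimation there. How far this moved the Csad values was not tested. Zfp740 averaged 20.1 ± 1.74 CPM for CTRL against 20.9 ± 2.59 CPM for OPA1_LKO (log2 fold change 0.06 ± 0.13 SE, adjusted p = 0.818, edgeR).

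Gadl1, on chromosome 9 from 115884671 to 116076176, encodes a decarboxylase of aspartate and cysteine sulfinate that is related to the Csad product. It had 0 estimated reads in all 8 libraries, which allows up to 0.135 to 0.206 CPM per library at a limit of 3 counts. Its 4 transcripts were likewise listed at 0. RNA of this gene was not detectable in whole liver at this depth.

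Slc6a6, on chromosome 6 from 91684048 to 91759063, measured 27.9, 37.6, 21.5, 27.1 and 27.7 CPM across the CTRL libraries, against 23.9, 25.5 and 18.3 CPM across the OPA1_LKO libraries. CTRL replicate 2 was the highest, and CTRL replicate 3 lay among the OPA1_LKO values. Its log2 fold change was -0.33 ± 0.19 (SE; adjusted p = 0.315, edgeR). Its 310.0 to 669 estimated reads per library fell mostly on the predicted transcript XM_006505870.1, which averaged 5.02 ± 1.50 TPM for CTRL against 4.25 ± 0.841 TPM for OPA1_LKO.

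Levels between genes were set side by side in TPM, the scale corrected for length. In CTRL the order was Cdo1 (1384 ± 304 TPM), Slc27a2 (683 ± 108), Slc27a5 (224 ± 59.7), Baat (139 ± 36.4), Acnat2 (39.1 ± 11.3), Csad (35.1 ± 17.7), Acot8 (28.9 ± 5.39), Acnat1 (17.8 ± 5.07) and Slc6a6 (5.17 ± 1.63; SD, n = 5 for each). Neighbours whose CTRL ranges overlapped were Slc27a5 and Baat, Acnat2 and Csad, and Csad and Acot8. Slc27a5 was nonetheless above Baat in 5 of 5 CTRL and 3 of 3 OPA1_LKO libraries. Csad was below Acnat2 in 3 of 5 CTRL libraries and above it in 3 of 3 OPA1_LKO libraries, at 76.6 ± 31.1 against 26.9 ± 6.01 TPM. The ratio of Baat to Slc27a5 in TPM was 0.635 ± 0.148 in CTRL and 0.448 ± 0.0397 in OPA1_LKO, and that of Csad to Cdo1 was 0.0262 ± 0.0142 and 0.0758 ± 0.0464. Both ratios overlapped between the groups.

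**Figure D3:**
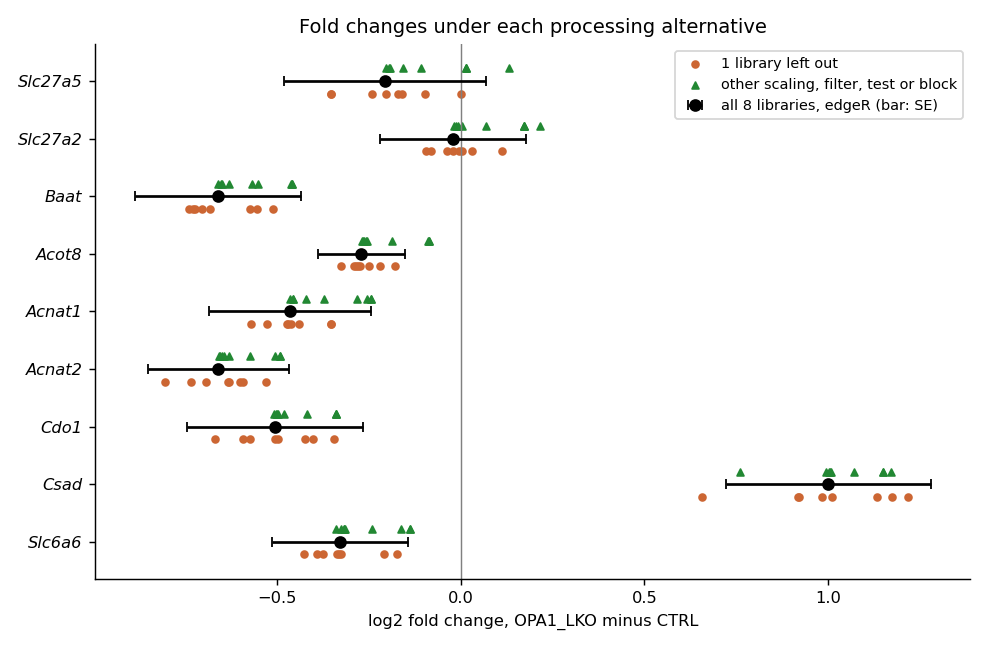
Log2 fold change (OPA1_LKO minus CTRL, horizontal axis) of the 9 tested genes with all 8 libraries (black, bar SE), with each library left out (orange) and under other scalings, filters, tests or the replicate block (green). Slc27a5 and Slc27a2 cross 0, and the other 7 genes keep their side under these alternatives, with Csad between 0.66 and 1.22.

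The genes around the pathway were read from the same edgeR fit, starting with the sulfur amino acid route that feeds cysteine into taurine, glutathione or sulfide. Of its 17 genes, all tested, 1 was called higher (3.34% of all genes were) and 2 lower (2.69% of all genes were), with a median log2 fold change of -0.19. On log2(TPM + 1) with limma the 2 were not called. Gclc, the catalytic subunit of the ligase that starts glutathione synthesis from cysteine, measured 238, 202, 163, 176 and 192 CPM across the CTRL libraries, against 87.5, 95.1 and 78.5 CPM across the OPA1_LKO libraries. The groups were far apart, and Gclc fell by 1.16 ± 0.16 (SE) on the log2 scale (adjusted p = 0.00423, edgeR), a call held in 8 of 8 fits with a library left out. On log2(TPM + 1) with limma it was -0.97 with an adjusted p of 0.0504.

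Got1, an aspartate aminotransferase that also takes cysteine sulfinate, the substrate of Csad, measured 57.0, 139, 71.2, 144 and 123.5 CPM across the CTRL libraries, against 240.2, 257 and 332 CPM across the OPA1_LKO libraries. Every OPA1_LKO library was above every CTRL library, and Got1 rose by 1.37 ± 0.30 (SE) on the log2 scale (adjusted p = 0.0268, edgeR). The call held in 4 of 8 fits with a library left out. Ethe1, the persulfide dioxygenase of mitochondria, fell by 0.53 ± 0.13 (SE; adjusted p = 0.0441, edgeR) from 48.6 ± 6.24 to 33.5 ± 0.696 CPM. That call held in 1 of 8 such fits and was lost with upper-quartile scaling (adjusted p = 0.0712). Cbs and Cth, the transsulfuration enzymes that make cysteine, were at 0.34 ± 0.30 and 0.55 ± 0.28 (log2 fold change, SE) and were not called.

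Of 11 genes of taurine handling 10 were tested, 0 were called higher and 2 lower, with a median log2 fold change of -0.04. The shares over all genes tested were 3.34% higher and 2.69% lower. None of the 10 was called on log2(TPM + 1) with limma. Slc36a1, a proton-coupled carrier of small amino acids, measured 21.8, 20.5, 22.5, 18.2 and 23.3 CPM across the CTRL libraries, against 10.3, 10.7 and 10.2 CPM across the OPA1_LKO libraries. Both groups were tight and separate, and it fell by 1.03 ± 0.13 (SE) on the log2 scale (adjusted p = 0.00244, edgeR), in 8 of 8 fits with a library left out. Fmo1, a flavin monooxygenase that oxidises hypotaurine to taurine, measured 159, 223, 179, 205 and 194 CPM across the CTRL libraries, against 114, 116 and 120.4 CPM across the OPA1_LKO libraries. It fell by 0.72 ± 0.14 (SE; adjusted p = 0.0206, edgeR), a call held in 5 of 8 such fits. Lrrc8d, a subunit of the volume-regulated channel through which taurine leaves cells, was at -0.53 ± 0.20 and was not called (adjusted p = 0.147, edgeR). Lrrc8a, the subunit this channel cannot do without, was at 0.42 ± 0.16 and was not called either (adjusted p = 0.153, edgeR).

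Side chain shortening in peroxisomes works on CoA esters of bile acid precursors and gives the bile acid-CoA that Baat can use directly. None of its 7 genes was called in edgeR, and 5 of 7 fold changes were negative, with a median of -0.36. In edgeR, 3 of them were lower with an unadjusted p under 0.05, as were 12.3% of all genes tested. DESeq2 called 3 lower after adjustment, where 5.29% of all genes were. The 3 with the smallest p were Hsd17b4, the D-bifunctional protein (-0.48 ± 0.15, adjusted p = 0.0947), Pex5, the import receptor (-0.38 ± 0.13, adjusted p = 0.104), and Scp2, whose long form is the thiolase (-0.87 ± 0.32, adjusted p = 0.134, all edgeR). In CPM, Pex5 and Hsd17b4 were lower in every OPA1_LKO library than in every CTRL library, as were 8.41% of all genes tested, and Scp2 overlapped. In TPM the groups overlapped for Pex5, Hsd17b4 and Scp2 alike.

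Of 14 relatives of the 10 genes, 9 were tested, 2 were called higher and 0 lower, with a median log2 fold change of -0.32. Among all genes tested, 3.34% were called higher and 2.69% lower. Acot2, a mitochondrial thioesterase, measured 62.9, 21.3, 40.6, 32.2 and 37.9 CPM across the CTRL libraries, against 195, 74.0 and 124 CPM across the OPA1_LKO libraries. It rose by 1.75 ± 0.35 (SE) on the log2 scale (adjusted p = 0.0195, edgeR), a call held in 5 of 8 fits with a library left out. Acot2 lies in a family of close copies with Acot1 and Acot3, so the split of its reads is uncertain. Acot3 went the other way, at -1.69 ± 0.54 (SE; adjusted p = 0.0961, edgeR), from 104 ± 55.4 to 32.2 ± 11.6 CPM. Acot1 was at -0.22 ± 0.50 (SE; adjusted p = 0.826, edgeR). Neither was called, and the sum of the family was not tested. Slc27a3, an acyl-CoA synthetase, rose by 1.51 ± 0.33 (SE; adjusted p = 0.0268, edgeR) from 0.934 ± 0.302 to 2.67 ± 0.405 CPM, and the call held in 4 of 8 such fits. Slc27a4 (FATP4) was at -0.70 ± 0.21 and was not called (adjusted p = 0.0855, edgeR).

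**Figure D4:**
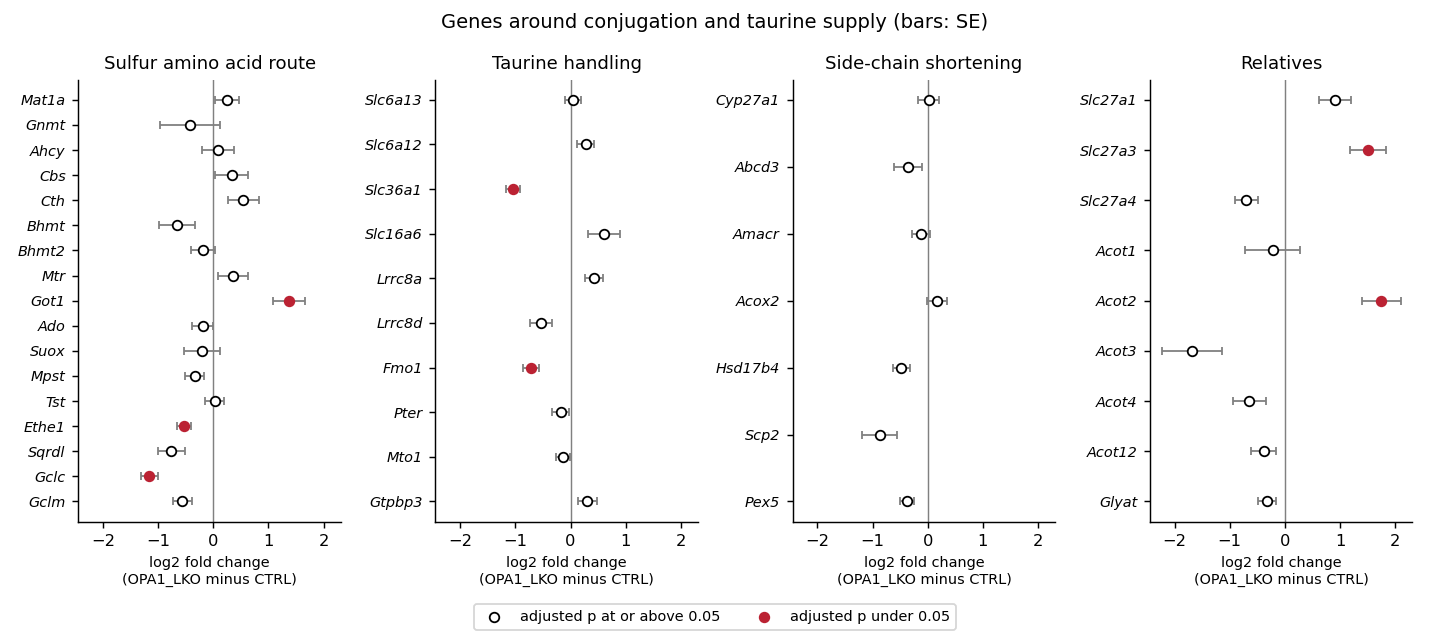
Log2 fold change (OPA1_LKO minus CTRL, horizontal axis; bars SE) of each tested gene in the 4 surrounding lists, filled where the adjusted p of edgeR is under 0.05. Gclc at -1.16 and Slc36a1 at -1.03 are the lowest filled points, and Acot2 at 1.75, Slc27a3 at 1.51 and Got1 at 1.37 the highest.

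The tested genes most like Baat over the 8 libraries were taken by the Pearson correlation of log2 CPM among 7201 tested genes whose mean reached 10 CPM. They were Akr1d1, the reductase of bile acid synthesis (r = 0.989), Mup12, a major urinary protein gene (r = 0.988), and Ak3, a mitochondrial adenylate kinase (r = 0.987). Akr1d1 averaged 133 ± 73.7 CPM for CTRL against 61.9 ± 14.03 CPM for OPA1_LKO and was not called (adjusted p = 0.139, edgeR). For Csad they were Lancl1 (r = 0.979), Nup98 (r = 0.968) and Htatip2 (r = 0.967). Lancl1 rose by 0.58 on the log2 scale (adjusted p = 0.0443) and Htatip2 by 1.06 (adjusted p = 0.0173, both edgeR). With a library left out, the Lancl1 call held in 1 of 8 fits and the Htatip2 call in 7 of 8. These genes were picked for their correlation, which describes 8 libraries that share their group difference and their scaling. With the group means taken out, r was 0.994 (Akr1d1), 0.976 (Mup12) and 0.972 (Ak3) for Baat. For Csad it was 0.974 (Lancl1), 0.938 (Nup98) and 0.946 (Htatip2).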

How the data were processed

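RNA of 8 samples of whole liver was sequenced as stranded poly(A) libraries, per the labels' protocols. The submitters' processing notes list the tools STAR, RSEM, MultiQC and StringTie and the mouse build mm10. No source used here gives the annotation release or the strand setting of the counting. The authors deposited RSEM expected counts, not normalised, and TPM, scaled by RSEM for length and library, each per gene and per transcript. RSEM divides ambiguous reads by estimation.

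Here the expected counts were rounded, filtered with filterByExpr (minimum count 10, total 15), TMM-scaled and tested in edgeR 4.0.16 (R 4.3.3) by its quasi-likelihood test on group alone, with Benjamini-Hochberg adjustment over all 14036 genes or 26349 transcripts. A gene was called at an adjusted p under 0.05. Alternatives used limma 3.58.1 and DESeq2 1.42.0, other scalings and filters, and each library left out. On simulated counts for this comparison (14036 genes) the test recovered 2% of 1.5-fold, 44% of 2-fold, 94% of 4-fold and 94% of 8-fold changes, 50 genes each, and called 7 of 13836 unchanged genes. Isoform shares are of gene TPM, compared by exact permutation. Coding sequences were aligned with Biopython 1.88.

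The 10 genes, the lists and the tests were chosen with earlier results of these data known. Named were the 10 genes, Opa1, in each list the genes called and the 3 with the smallest p, the 3 genes most like Baat and Csad, and cell and zone markers. Cbs, Cth, Lrrc8a, Acot1, Acot3, Zfp740, Apoe, Xist, Ddx3y, Eif2s3y, Kdm5d, Gad1, Gad2 and Slc6a11 lie outside that rule, having been picked with their values known. All 115 other list entries matched the table, 1 through another symbol (Sqor as Sqrdl). The replicate numbers were not taken as pairs, and whether same-numbered libraries share an effect was not tested. No column of other samples was present. The closest pair of libraries differed far beyond counting noise (chi-square per degree of freedom 41.4). Coordinates are RefSeq's for GRCm38.p6.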

Additional observations from a re-analysis of the deposited data

Results flagged for a closer look

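Of 35 values examined for a library far from the rest of its group, 2 stood out by Dixon's criterion for 5 libraries (critical value 0.71), and chance alone flags about 1 in 20. Ethe1 was highest in CTRL replicate 2, at 59.5 CPM, and its log2 fold change was -0.56 to -0.45 with each library left out, with a call in 1 of these 8 fits (edgeR). The summed neutrophil markers were highest in CTRL replicate 1, at 14.6 CPM, the library with little Apoe. The criterion was applied to CTRL alone, since groups of 3 are not examined by it, and the CTRL values of the 9 tested genes of conjugation and taurine supply did not pass it.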

How the results depend on the processing

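Signs of Baat, Acot8, Cdo1, Csad, Slc6a6, Acnat1 and Acnat2 held in all 17 alternatives, with ranges of -0.74 to -0.46 for Baat and 0.66 to 1.22 for Csad. DESeq2 called 1 of the 10 genes higher and 2 lower, the replicate block 1 higher (Csad, 0.76, adjusted p = 0.0473), and fits with a library left out 0 to 1 each way. The block called 193 genes higher and 174 lower over all genes. Deviations of same-numbered libraries correlated at 0.072, 0.0537 and 0.175. OPA1_LKO replicates 1 and 3 but not 2 were most like the CTRL library of their own number. The main fit did not take the numbers as pairs, and a shared effect of the number was not tested. Summing Acnat1 and Acnat2, added after seeing the data, called neither.

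Over all genes DESeq2 called 786 higher and 810 lower. The lower count was 238 with no low-count filter, 107 on log2(TPM + 1), 113 on log2(TPM + 0.1) and 58 on log2(TPM + 1) unfiltered. With a library left out it was 54 to 777, and the higher count 144 to 924. The median of all genes was -0.03 in edgeR, 0.09 on log2(TPM + 1) and 0.14 on log2(TPM + 0.1), and TPM changes are to be read against it. In the sulfur route the genes called lower numbered 4 in DESeq2, 0 on both log2(TPM + 1) settings and 1 on log2(TPM + 0.1), with upper-quartile scaling, with no filter and with the block. With a library left out they numbered 1 to 3, and those higher 0 to 1. In taurine handling the lower count was 0 on all 3 TPM settings, 1 with the block and 1 to 2 with a library left out, and the higher count 0 to 1. In side chain shortening DESeq2 called 3 lower. Of the relatives, 1 was called higher on log2(TPM + 1) unfiltered and with the block and 0 to 2 with a library left out, and 1 was called lower in DESeq2 and 0 to 3 with a library left out. Transcripts called higher numbered 7, 0 with the block and 0 to 2 with a library left out, and those lower 8, 5 with no filter, 0 with the block and 0 to 1.

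Slc27a5 changed sign to 0.0149 on log2(TPM + 1), filtered or not, 0.0151 on log2(TPM + 0.1) and 0.13 with the block, over -0.35 to 0.00117 with a library left out. Its transcript was at 0.14 with the block and -0.33 to 0.0231. Slc27a2 was at 0.0700 with upper-quartile scaling, 0.17 on the TPM settings, 0.00322 with limma-voom, 0.22 with the block and -0.0931 to 0.11 with a library left out, and its transcript at -0.00987 with no filter and -0.0664 to 0.13 with a library left out. With a library left out Csad NM_144942.4 ran from -0.31 to 1.12 (up to 1.49 over all 11 alternatives), and the share difference from -0.127 to 0.233 points for Baat NM_007519.3 and -24.0 to 3.31 points for Csad NM_144942.4. The cause was not tested. In the simulation, 2% of 1.5-fold changes were recovered, so differences of the size of most of these genes may be missed with 8 libraries. It changed 50 genes at each fold, whereas 846 genes were called in the data, so its recovery need not carry over. In the edgeR fit of the data, Ethe1 at -0.53 and Lancl1 at 0.58 were called.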
